A study of Mus musculus with 8 samples.

Results

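The proteins studied here coat lipid droplets or control how droplets form and fuse. Their transcripts were read in brown adipose tissue (BAT), the heat-producing depot, of 8 male C57BL/6J mice, 1 mouse per Affymetrix Mouse Gene 2.0 ST array. The 10 genes are the perilipins Plin1, Plin2, Plin3, Plin4 and Plin5, the CIDE genes Cidea and Cidec, the seipin gene Bscl2 and the fat storage-inducing genes Fitm1 and Fitm2. They were listed by their known role, with earlier results of these data known. Each was represented by its probe set of highest mean among those annotated with 1 gene symbol, and the 10 genes are 10 of the 22180 genes so represented. All 10 lay above the limit for dim probe sets and entered the test.

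There were 5 arrays labelled Abhd15 KO, from mice with Abhd15 knocked out, and 3 arrays labelled WT, from wild-type mice. All mice ate normal chow, were about 14 weeks old, and were fasted overnight and given chow again for 1 h before the tissue was taken. How the allele was made and which part of Abhd15 it removes is not stated in the sources used. Nothing in the labels ties arrays to litters, cages or days. The p-values weigh differences against the spread between these mice. They cannot separate genotype from a litter, cage or day shared within a label.

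A lipid droplet is a store of triglyceride wrapped in a single layer of phospholipid. Perilipins sit on that layer and control how lipases reach the fat inside, which in fat cells links them to the hormones of feeding and fasting. CIDE proteins gather where droplets touch and pass lipid from the smaller to the larger one, and seipin and the FITM proteins work in the endoplasmic reticulum where droplets are made. In brown fat, with its many small droplets beside mitochondria, Cidea is a common marker of cell identity, and Plin5 is known from tissues that burn fatty acids.

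The stretches around the gene starts are shown for the genes on which the results below turn, Plin3 as the one gene whose groups did not overlap, and Plin4, Cidec and Plin2 as the genes of the 3 pairs with the highest Pearson's r between mice. The sequences are from RefSeq, GRCm38.p6, and run 5′ to 3′ on the gene's strand from 250 bases before to 50 bases after the start. Plin2 is at chr4:86670010-86670309, Plin3 at chr17:56290462-56290761, Plin4 at chr17:56109733-56110032 and Cidec, at its first listed start, at chr6:113435711-113436010, all on the minus strand. Capitals mark matches on either strand to short motifs that were searched for. AGGTCA is the core of the sites that PPAR and other nuclear receptors bind. The CCAAT box and the GC box, spelled GGGCGG, are common promoter elements, and the E-box searched for was CACGTG.
Plin2: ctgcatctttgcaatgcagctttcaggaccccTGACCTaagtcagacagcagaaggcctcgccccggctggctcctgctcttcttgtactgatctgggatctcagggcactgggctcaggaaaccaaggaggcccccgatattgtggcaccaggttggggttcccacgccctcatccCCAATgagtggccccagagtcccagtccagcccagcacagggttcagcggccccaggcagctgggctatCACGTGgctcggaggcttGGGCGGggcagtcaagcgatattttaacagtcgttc
Plin3: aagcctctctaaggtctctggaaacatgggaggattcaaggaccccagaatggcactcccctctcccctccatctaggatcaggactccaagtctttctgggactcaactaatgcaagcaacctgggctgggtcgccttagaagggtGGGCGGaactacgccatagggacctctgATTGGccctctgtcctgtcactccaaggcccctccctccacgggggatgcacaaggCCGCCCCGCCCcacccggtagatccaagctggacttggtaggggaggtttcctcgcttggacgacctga
Plin4: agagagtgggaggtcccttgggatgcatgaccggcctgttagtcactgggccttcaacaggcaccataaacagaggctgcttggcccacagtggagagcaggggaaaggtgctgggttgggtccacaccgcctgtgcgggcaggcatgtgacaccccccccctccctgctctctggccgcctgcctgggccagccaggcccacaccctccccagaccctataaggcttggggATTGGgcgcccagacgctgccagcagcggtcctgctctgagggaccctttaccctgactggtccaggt
Cidec: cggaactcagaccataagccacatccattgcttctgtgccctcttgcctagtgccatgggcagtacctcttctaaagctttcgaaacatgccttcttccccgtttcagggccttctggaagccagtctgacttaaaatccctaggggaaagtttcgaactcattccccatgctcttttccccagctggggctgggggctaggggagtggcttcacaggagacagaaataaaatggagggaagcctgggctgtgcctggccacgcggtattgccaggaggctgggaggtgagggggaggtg

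Stretches of 9 of the 10 genes, all but Cidea, were used here, 13 in all since some genes have several starts. AGGTCA was in 4 of the 13 stretches (1 of Plin2, 1 of Bscl2 and both of Plin5) and in 16.3% of all 32851 stretches of the same length. CCAAT was in 5 of the 13 (37.4% of all stretches) and GGGCGG in 6 (35.7%). CACGTG was in 1 of the 13, that of Plin2, 4 bases before its start (7.15% of all stretches), and TATAAA in 0 (13.6%). In Plin3 the GC box came 3 times, and a pair of these shares 1 base. The Cidec stretch held none of these letters, which says nothing about the factors themselves.

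The probe sets of Abhd15 did not separate the labels, so the arrays labelled Abhd15 KO are called by their label throughout. Its brightest probe set read 6.32, 6.14, 5.68, 6.35 and 6.13 log2 in the arrays labelled Abhd15 KO, in replicate order, and 5.87, 5.94 and 6.23 log2 in WT. A second probe set averaged 3.81 log2 under the KO label and 3.52 log2 in WT (exact permutation p = 0.518), and one shared with Trp53i13 averaged 4.42 log2 under the KO label and 4.57 log2 in WT (exact permutation p = 0.268). Probes that lie outside the deleted part cannot show the deletion. The tissue label fitted Ucp1, the uncoupling protein, which lay between 12.51 and 12.89 log2 in the 8 arrays. All 13 brown adipocyte markers besides Cidea passed the filter on dim values, whose limit was 2.88 log2. So did all 25 skeletal muscle, 20 macrophage and 12 endothelial markers, so passing it does not tell tissues apart. Skeletal muscle markers were present and spread widely, with a mean of 25 markers between 4.71 and 7.36 log2 in the arrays labelled Abhd15 KO and between 5.33 and 8.14 log2 in WT. Of the endothelial markers 12 of 12 had a higher mean under the KO label and of 10 white adipocyte markers 5, with 0 called in either list. The mean of the endothelial markers overlapped, at 6.50 to 6.93 log2 under the KO label and 6.46 to 6.71 log2 in WT (exact permutation p = 0.268). Angptl8, a lipoprotein lipase regulator that feeding induces, was low in Abhd15 KO replicate 1 (7.90) and WT replicate 2 (7.95) and 10.42 to 10.81 log2 in the other arrays.

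None of the 10 lipid droplet genes passed the test between genotypes. With limma, 0 of 10 had an adjusted p under 0.05, as had 0% of 13229 tested genes, and the adjusted p was 0.9997 for each of the 10. At an unadjusted p under 0.05 there was 1 of 10, Plin3, against 4.01% of all tested genes (2.24% higher and 1.77% lower under the KO label). The means of 5 were higher and of 5 lower under the KO label, and their median difference was −0.01 log2 against 0.01 over all tested genes. The distance from the difference to either end of its 95% confidence interval ran from 0.22 log2 for Cidea to 1.04 log2 for Fitm1. So the data limit a change in signal more tightly for the steadiest genes than for the others. Levels of different probe sets are not on one scale, so the genes are compared between arrays and not with each other.

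**Figure D1:**
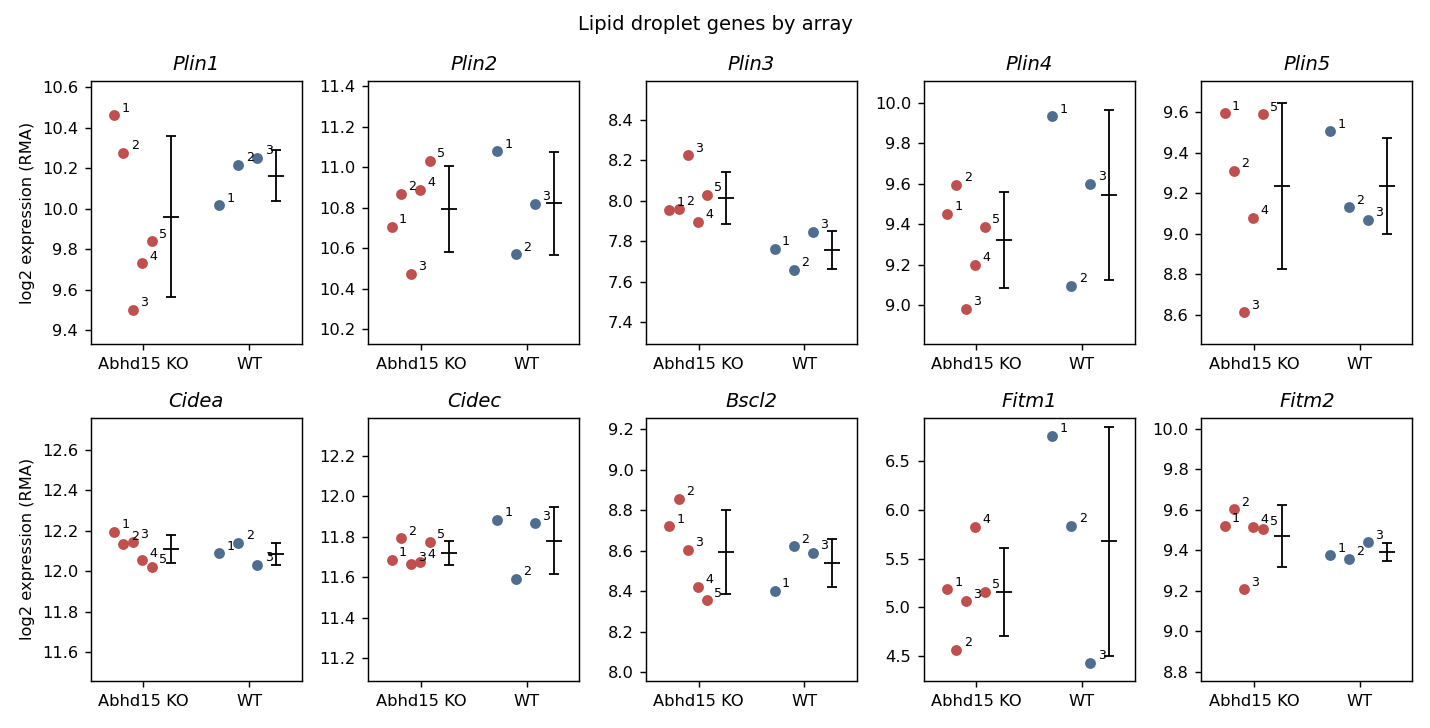
Expression of the 10 lipid droplet genes (vertical axes, log2 RMA value; each panel spans 1.3 log2 units, Fitm1 2.7) in 5 arrays labelled Abhd15 KO (left, red) and 3 WT arrays (right, blue). Points are arrays with their replicate number, and black bars are mean and SD; only the Plin3 groups do not overlap.

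Plin3, the perilipin found in most cell types that moves between the cytosol and newly formed droplets, was the gene whose groups stood apart. It read 7.96, 7.96, 8.22, 7.90 and 8.03 log2 in the arrays labelled Abhd15 KO, against 7.76, 7.66 and 7.85 log2 in WT. Every array labelled Abhd15 KO was above every WT array, and the gap between the nearest arrays was small beside the spread inside the groups. The means were 8.01 ± 0.13 log2 (SD, n = 5) and 7.76 ± 0.09 log2 (SD, n = 3), a difference of 0.26 log2 or 1.20-fold, with a 95% confidence interval of 0.0029 to 0.51 from limma. The exact two-sided permutation test over the 56 ways to choose 5 of 8 arrays gave p = 0.0179, the lowest it allows, which follows from the lack of overlap. Groups failed to overlap in 1 of the 10 lipid droplet genes and in 2.77% of all tested genes, or 1.58% counting this direction only. The difference did not survive adjustment over all genes (limma adjusted p = 0.9997). In 18 alternatives it stayed between 0.20 and 0.30 log2, with an unadjusted limma p under 0.05 in 5 of them and between 0.0216 and 0.151 in all. Macrophages also use Plin3; 17 of 20 macrophage markers had a lower mean in the arrays labelled Abhd15 KO, 0 of 20 were called, and their mean level was 4.46 to 5.24 log2 there and 4.80 to 5.43 log2 in WT. With their mean as a covariate, a setting added after the data were seen, the Plin3 difference was 0.24 log2. In whole tissue, fewer cells of a type and less RNA per cell cannot be told apart.

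Plin1, the coat protein of adipocyte droplets that holds the lipase co-activator ABHD5 until protein kinase A releases it, varied under the KO label. It read 10.46, 10.27, 9.50, 9.73 and 9.84 log2 in the arrays labelled Abhd15 KO, against 10.02, 10.22 and 10.25 log2 in WT. Replicates 3, 4 and 5 of Abhd15 KO lay below all WT arrays and replicates 1 and 2 above them. The difference was −0.20 log2 (95% confidence interval −0.68 to 0.28, exact permutation p = 0.429), with −0.09 log2 when Abhd15 KO replicate 3 was left out and −0.33 log2 when Abhd15 KO replicate 1 was. The SD was 0.40 log2 in the arrays labelled Abhd15 KO (n = 5) and 0.13 log2 in WT (n = 3).

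Plin2, the perilipin that rises with lipid load in many tissues, overlapped fully. It read 10.71, 10.87, 10.47, 10.89 and 11.03 log2 in the arrays labelled Abhd15 KO, against 11.08, 10.57 and 10.82 log2 in WT. The highest array was WT replicate 1 and the lowest Abhd15 KO replicate 3, and the difference was −0.03 log2 (−0.39 to 0.33, exact permutation p = 0.839). Its direction turned when WT replicate 1 was left out (0.10 log2) or Abhd15 KO replicate 3 was (0.05 log2).

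Plin4, the perilipin of white fat and muscle, was lower on average under the KO label but depended on single WT arrays. It read 9.45, 9.60, 8.98, 9.20 and 9.39 log2 in the arrays labelled Abhd15 KO, against 9.93, 9.10 and 9.60 log2 in WT. The WT arrays held the highest value and the second lowest, so the KO-labelled values lay mostly inside their range. The difference was −0.22 log2 (−0.68 to 0.24, exact permutation p = 0.375). It was −0.44 log2 without WT replicate 2 (limma unadjusted p = 0.0446, limma adjusted p = 0.9999). Without both WT replicate 2 and Abhd15 KO replicate 1 it was −0.47 log2 (limma unadjusted p = 0.0475, limma adjusted p = 0.9996). It was −0.13 log2 without Abhd15 KO replicate 3 and −0.03 log2 without WT replicate 1. In RefSeq the gene Hdgfl2 overlaps Plin4, and where the probes lie was not given in the sources used here.

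Plin5, which ties droplets to mitochondria in heart, muscle and brown fat, had nearly equal means and a wide spread. It read 9.60, 9.31, 8.61, 9.08 and 9.59 log2 in the arrays labelled Abhd15 KO, against 9.51, 9.13 and 9.07 log2 in WT. Abhd15 KO replicate 3 was the lowest of all arrays, and the difference was 0.00 log2 (−0.52 to 0.52, exact permutation p = 0.946). The interval leaves room for a change of about the size of the spread between mice in either direction.

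The CIDE genes gave some of the steadiest signals. Both read close to the upper end of the values on these arrays, and whether signal is compressed there was not tested. Their small spread is therefore a statement about signal and not about transcript amount. Cidea, the brown fat member that promotes droplet fusion and is a marker of brown adipocytes, read 12.19, 12.14, 12.15, 12.05 and 12.02 log2 in the arrays labelled Abhd15 KO, against 12.09, 12.14 and 12.03 log2 in WT. All 8 arrays lay within 0.17 log2 of each other, and only 1.55% of tested genes had a smaller SD within groups. The difference was 0.02 log2 (−0.20 to 0.24, exact permutation p = 0.679).

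Cidec, known in mice as Fsp27 and linked to the large droplets of white fat, read 11.69, 11.79, 11.66, 11.68 and 11.77 log2 in the arrays labelled Abhd15 KO, against 11.88, 11.59 and 11.87 log2 in WT. WT held the lowest array and the top pair, and the KO-labelled arrays lay between them. The difference was −0.06 log2 (−0.31 to 0.18, exact permutation p = 0.393), with an SD of 0.06 log2 in the arrays labelled Abhd15 KO (n = 5) and 0.16 log2 in WT (n = 3). It was −0.16 log2 without WT replicate 2, −0.01 log2 without WT replicate 1 and −0.02 log2 without WT replicate 3.

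**Figure D2:**
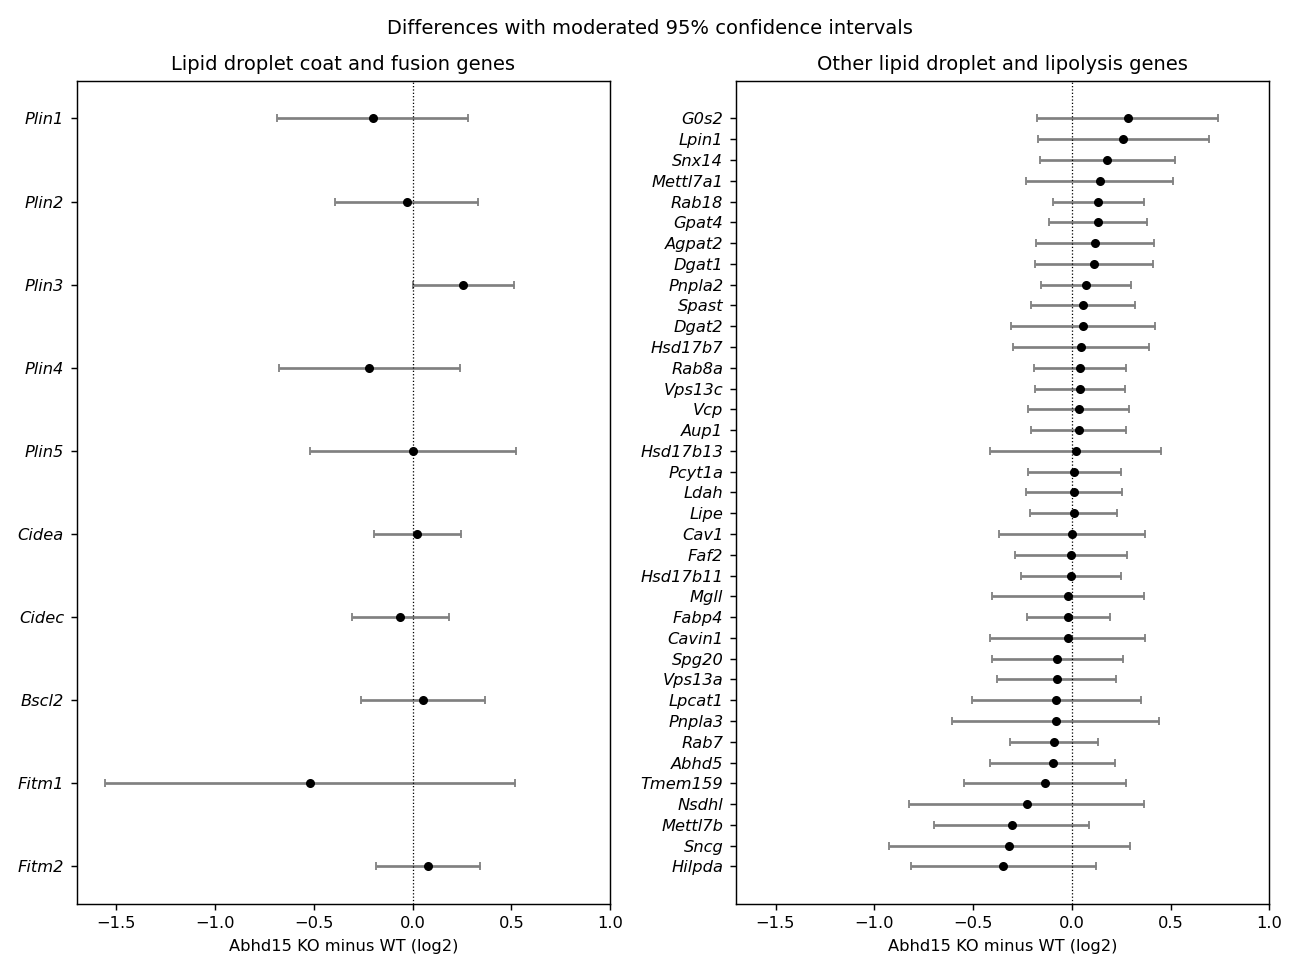
Differences, Abhd15 KO minus WT in log2 units (horizontal axes), of the 10 lipid droplet genes (left) and 37 other droplet and lipolysis genes (right, sorted by difference); bars are moderated 95% confidence intervals. The interval of Plin3 is the only one that lies above 0, from 0.0029 to 0.51, and that of Fitm1 is the widest.

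Of the genes that make droplets, Bscl2 encodes seipin, which marks the sites where droplets grow from the endoplasmic reticulum and whose loss in people causes a lack of fat tissue. It read 8.72, 8.86, 8.60, 8.42 and 8.36 log2 in the arrays labelled Abhd15 KO, against 8.40, 8.62 and 8.59 log2 in WT. The KO-labelled arrays lay on both sides of the WT range, and the difference was 0.05 log2 (−0.26 to 0.37, exact permutation p = 0.696). Its direction turned when WT replicate 1 was left out (−0.014 log2) or Abhd15 KO replicate 2 was (−0.013 log2). In RefSeq Bscl2 overlaps Gng3, which read 2.34 to 3.33 log2 in the 8 arrays, near the dim limit.

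Fitm2, the widely expressed FITM gene that droplet budding and adipocyte storage need, read 9.52, 9.60, 9.21, 9.52 and 9.51 log2 in the arrays labelled Abhd15 KO, against 9.38, 9.36 and 9.44 log2 in WT. Abhd15 KO replicates 1, 2, 4 and 5 lay above all WT arrays and replicate 3 below them. The difference was 0.08 log2 (−0.18 to 0.34, exact permutation p = 0.482) and 0.15 log2 without Abhd15 KO replicate 3, at an unadjusted limma p of 0.191; without Abhd15 KO replicate 2 it was 0.05 log2.

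Fitm1, the FITM gene of skeletal muscle and heart, spread more than any other of the 10 and moved with muscle markers. Its brighter probe set read 5.19, 4.56, 5.06, 5.82 and 5.16 log2 in the arrays labelled Abhd15 KO, against 6.76, 5.84 and 4.43 log2 in WT. The 3 WT arrays alone spanned 2.33 log2, the whole range of the 8, and 98.7% of tested genes had a smaller SD within groups. The difference was −0.52 log2 (−1.56 to 0.52, exact permutation p = 0.393). It was 0.024 log2 without WT replicate 1. It was −1.14 log2 without WT replicate 3 (limma unadjusted p = 0.0092, limma adjusted p = 0.957).

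Across the 8 arrays Fitm1 followed the mean of the 25 skeletal muscle markers with Pearson's r = 0.945 (exact permutation p = 0.00069) and Spearman's rho = 0.929 (exact permutation p = 0.0022). Of 60 relations between the 10 genes and 6 marker lists, a comparison added after the data were seen, it alone passed for Pearson's r after Benjamini-Hochberg adjustment (adjusted exact permutation p = 0.0417), and none passed for rho (adjusted exact permutation p = 0.134 for this one). Without the 2 arrays farthest from the median muscle level r was 0.954. The muscle means were 6.37, 4.71, 6.08, 7.36 and 6.70 log2 in the arrays labelled Abhd15 KO and 8.14, 6.99 and 5.33 log2 in WT, and all 25 markers had a lower mean in the arrays labelled Abhd15 KO, with 0 of 25 called. With the muscle mean as a covariate the Fitm1 difference was −0.15 log2.

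A second probe set of Fitm1 did not follow the first. It read 3.64, 4.28, 4.43, 3.54 and 4.23 log2 in the arrays labelled Abhd15 KO, against 4.55, 3.73 and 3.91 log2 in WT, nearer to the dim limit. Its difference was −0.04 log2 (exact permutation p = 0.929). Over the 8 arrays it correlated with the first probe set at r = 0.090 (rho = −0.095; exact permutation p = 0.834 and 0.840) and with the muscle mean at r = −0.031 (rho = −0.119; exact permutation p = 0.939 and 0.793). Without the 2 farthest arrays these r were −0.739 and −0.413. Which of the probe sets reads the Fitm1 transcript was not tested.

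**Figure D3:**
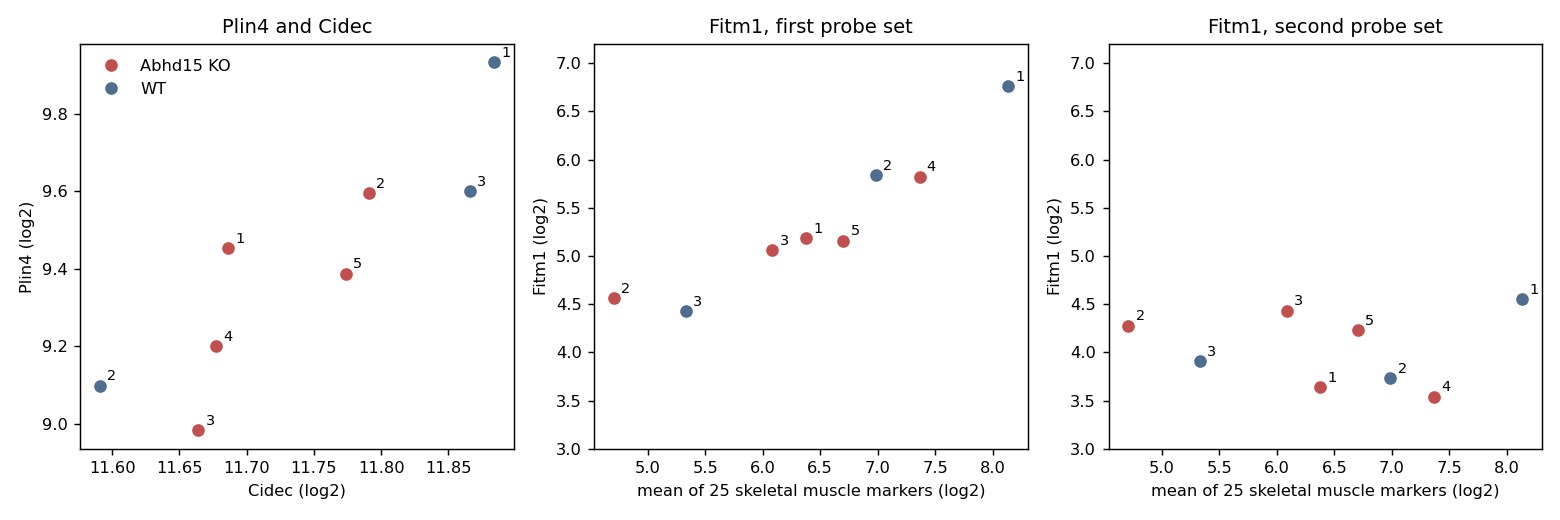
Plin4 against Cidec (left), and the brighter (middle) and second (right) probe set of Fitm1 against the mean of 25 skeletal muscle markers, all in log2 units; points are arrays with their replicate number, Abhd15 KO red and WT blue. The first Fitm1 probe set climbs with the muscle markers (r = 0.945) and the second does not (r = −0.031).

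Among the 45 pairs of the 10 genes, Plin4 and Cidec had the highest r and the highest rho between mice. Their r was 0.881 (exact permutation p = 0.0044, adjusted exact permutation p = 0.199 over 45 pairs) and their rho 0.952 (exact permutation p = 0.0011, adjusted exact permutation p = 0.0513), so neither passed. Without the 2 arrays farthest from the median of Plin4 r was 0.880, leaving out single arrays gave 0.828 to 0.918, and after centring within genotype it was 0.868. The arrays lowest in both were WT replicate 2 and Abhd15 KO replicate 3, and WT replicate 1 was highest in both. Plin2 followed Plin4 (r = 0.756, rho = 0.619; exact permutation p = 0.0305 and 0.115) and Cidec (r = 0.734, rho = 0.690; exact permutation p = 0.0430 and 0.0694), with adjusted exact permutation p of 0.545 for both r and 0.739 for both rho. Without the 2 arrays farthest from the median of Plin2, which narrows its range, these r fell to 0.378 and 0.500. Leaving out single arrays gave 0.629 to 0.851 and 0.625 to 0.824, and centring within genotype 0.787 and 0.751. These r therefore depend in part on the farthest arrays. By rho the second pair was Cidea with Bscl2 (r = 0.705, rho = 0.738; exact permutation p = 0.0540 and 0.0458, adjusted 0.545 and 0.739), with r = 0.538 without the 2 farthest arrays. Plin4 and Plin5, neighbours on chromosome 17, had r = 0.638 and rho = 0.381 (exact permutation p = 0.0879 and 0.3599, adjusted 0.558 and 0.805), and r = 0.248 without the 2 farthest arrays.

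Abhd15 KO replicate 3 was the array in which most of these genes were extreme. It was the lowest of the 8 arrays in 5 of the 10, Plin1, Plin2, Plin4, Plin5 and Fitm2, and the highest in Plin3, while 10.1% of all tested genes were lowest and 13.6% highest there. Of the 37 other droplet and lipolysis genes 8 were lowest there too. Relative to each gene's mean over the arrays it read −0.54 for Plin1, −0.33 for Plin2, −0.42 for Plin4, −0.62 for Plin5 and −0.23 for Fitm2, but 0.31 for Plin3 and 0.04 for Cidea, in log2 units. The mean of the brown adipocyte markers without Cidea was also lowest there, 7.85 log2 against 8.11 to 8.37 in the other arrays labelled Abhd15 KO and 8.02 to 8.24 in WT. Much of that gap was Dio2, a member of the list: without it, a setting added after the data were seen, the mean of the other 12 was 8.13 log2 there, against 8.18 to 8.38 in the other arrays labelled Abhd15 KO and 8.23 to 8.36 in WT. The white adipocyte markers were also lowest there, at a mean of 4.10 log2. It was 4.19 to 4.44 in the other arrays labelled Abhd15 KO and 4.29 to 4.38 in WT. This mean took 10 of 14 listed markers, of which Hoxc9 averaged below the dim limit. Lep, another of them, was below it in Abhd15 KO replicates 3 and 4. The r of the white adipocyte mean was 0.816 with Plin5 and 0.724 with Plin1 (rho = 0.667 and 0.619). The exact permutation p was 0.0128 and 0.0420 for r and 0.0831 and 0.115 for rho. Without the 2 farthest arrays r was 0.447 and 0.0028, and neither passed after adjustment over the 60 relations. Fitm2 with the brown adipocyte markers had r = 0.795 (exact permutation p = 0.0187) and rho = 0.476 (exact permutation p = 0.243). For Bscl2 with the muscle markers r was −0.753 (exact permutation p = 0.0302) and rho −0.595 (exact permutation p = 0.132). Without the 2 farthest arrays these r were 0.560 and −0.421, and neither passed after adjustment. Cidea ran against the mean of the other brown adipocyte markers. Its r was −0.608 (exact permutation p = 0.108) and its rho −0.786 (exact permutation p = 0.0279). Neither passed after adjustment over the 60 relations (adjusted exact permutation p = 0.805 and 0.838). Without the 2 farthest arrays this r was −0.443. In Abhd15 KO replicate 3 the general adipocyte markers were not low, at 10.37 log2. They lay at 10.25 to 10.34 in the other arrays labelled Abhd15 KO and at 10.33 to 10.40 in WT. The part of tissue make-up in this array was not tested. WT replicate 1 was the highest array in 4 of the 10, Plin2, Plin4, Cidec and Fitm1, against 11.5% of all tested genes. Of the arrays low in Angptl8, Abhd15 KO replicate 1 was highest in Plin1, Plin5 and Cidea, as in 14.1% of all tested genes. The other, WT replicate 2, was the lowest in Cidec and Plin3, as in 16.3% of all tested genes.

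**Figure D4:**
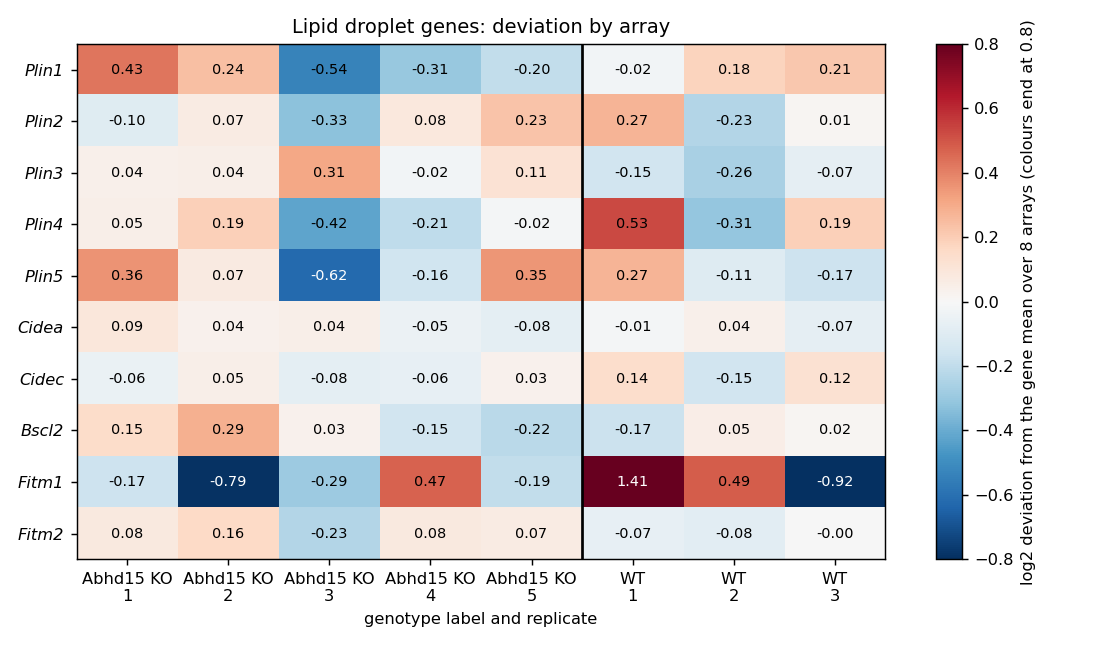
Deviation of each lipid droplet gene (rows) from its own mean over the 8 arrays, in log2 units, by array (columns; Abhd15 KO left and WT right of the line). Abhd15 KO replicate 3 holds the lowest value of Plin1, Plin2, Plin4, Plin5 and Fitm2 and the highest of Plin3; Fitm1 varies from −0.92 to 1.41, beyond the colour scale.

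The other genes of the droplet surface and of lipolysis did not pass either. Of 39 listed, 37 were tested and 0 passed with limma, 0 had an unadjusted p under 0.05, and 0 had groups that did not overlap. The means of 20 were higher and of 17 lower in the arrays labelled Abhd15 KO, and the median difference was 0.01 log2, against 0.01 over all tested genes. Cideb, the liver member of the CIDE genes, and Acsl3, an acyl-CoA synthetase of nascent droplets, are on probe sets shared with another gene and were not analysed here. The genes of lowest p were Mettl7b (−0.31 log2, −0.70 to 0.09), Hilpda (−0.35, −0.82 to 0.12), G0s2 (0.28, −0.18 to 0.74), Lpin1 (0.26, −0.17 to 0.69), Rab18 (0.13, −0.10 to 0.37) and Gpat4 (0.13, −0.12 to 0.38), given with 95% confidence intervals. Hilpda and G0s2 both inhibit the lipase ATGL, and their differences had opposite signs. Pnpla2, the gene of ATGL, differed by 0.07 log2 (−0.16 to 0.30), Lipe, hormone-sensitive lipase, by 0.01 (−0.21 to 0.23) and Abhd5, the co-activator that Plin1 holds, by −0.10 (−0.41 to 0.22). Mettl7b read 2.99 log2 in the arrays labelled Abhd15 KO and 3.30 log2 in WT, close to the dim limit.

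The genes whose values ran most like each droplet gene over the 8 arrays were sought among 12058 others, so high correlations are fixed by that choice and carry no test. Plin4 ran with Pear1 (r = 0.987), a receptor of platelets and vessels, and Itga7 (0.977), an integrin of muscle. Cidea ran with Mc5r (0.984), a melanocortin receptor, and Asb13 (0.959). Cidec ran with the kinase gene Dyrk1a (0.984) and Carmil1 (0.969). Fitm1 ran with Rtn2 and Rpl3l (0.980 each), the second a ribosomal protein gene of muscle. Plin3 ran with Atp5g1 (0.976) and Apobec3 (0.972), a gene of antiviral defence. Plin2 ran with Cdon (0.968) and Gpat3 (0.962), an enzyme of triglyceride synthesis. Bscl2 ran with Prkar2b (0.962), the protein kinase A subunit of adipocytes, and Dalrd3 (0.961). Plin1 ran with Mcrip2 (0.956) and Pcbp2 (0.950), Plin5 with Efr3b and B4galt5 (0.947 each) and Fitm2 with Ndst2 (0.942) and Gpr19 (0.938). Of these, Atp5g1, Efr3b, Gpr19, Rtn2 and Rpl3l lay below the dim limit in some arrays.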

How the data were processed

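The deposited log2 values, 1 per probe set and array, were made by the authors with RMA and the oligo package, per the submitters' processing notes, and the design text names Expression Console. RMA subtracts background and gives all arrays nearly one distribution, so a shift shared by most genes would be hidden. No version, build or probe position was given in the sources used here. From each mouse 200 ng of total RNA was labelled. The 41345 probe sets read 0.49 to 13.3 log2, and arrays correlated at 0.964 to 0.975. Precision is limited by the number of arrays and by signal over background, since arrays have no read depth.

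Gene names came from the platform annotation (23521 with 1 symbol, 1814 with several, 16010 with none), with Entrez identifiers looked up in RefSeq, GRCm38.p6 (23328 matched). The dim limit, 2.88 log2, is the 95th percentile of 1405 probe sets of olfactory and vomeronasal receptors. Genes exceeding it in 3 or more arrays, 13229, were tested with limma 3.58.1 in R 4.3.3 (1 group term, Benjamini-Hochberg over all of them, threshold 0.05). Exact two-sided permutation tests enumerated 56 splits of the arrays, or 40320 orderings for correlations. These steps were tested on simulated data. The lipid droplet genes and all lists were chosen with earlier results of these data known. Named genes are the 10, Abhd15, Angptl8, 6 of lowest p and 6 fixed genes of the second list, and the 2 most alike genes for each of the 10, leaving out gene models and small RNAs. Ucp1, Dio2, Lep, Gng3 and Hdgfl2 are named besides, chosen after values were seen. Replicate numbers were not used as pairs in the main test, since the labels do not say that they pair the arrays. Alternatives changed the block, filter, normalization, variance model, array weights, probe sets, a muscle covariate and the arrays included.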

Additional observations from a re-analysis of the deposited data

Results flagged for a closer look

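In the arrays labelled Abhd15 KO, Fitm2 was 9.21 log2 in replicate 3, against 9.51 to 9.60 in the other 4 arrays, a gap of 0.757 of the group's whole range, above Dixon's critical value of 0.71 for 5 samples. Angptl8 was 7.90 log2 in replicate 1, against 10.42 to 10.81 in the others, a gap of 0.864 of the range. These were 2 of 21 genes examined in this way, and chance gives about 1 in 20. Angptl8 was among the 21 because it was already known to set 2 arrays apart. Its flag was therefore fixed beforehand and does not count against the chance rate. The WT group of 3 is too small for this check.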

How the results depend on the processing

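All 18 alternative settings called 0 lipid droplet genes, 0 of the other droplet genes and 0 of all tested genes by limma, with a lowest adjusted p of 0.939 among the 10 lipid droplet genes. With no filter on low values 1019 of 22180 genes had an unadjusted p under 0.05, against 530 of 13229. No pair of the 10 genes passed for Pearson's r in any of the 10 alternatives for correlations, which were counted by r only. Without both WT replicate 2 and Abhd15 KO replicate 1 the lowest adjusted exact permutation p was 0.0625. So few orderings remain there that 1 pair alone could not pass. The differences of Plin1, Plin3, Plin4, Cidec and Fitm2 kept their direction in every alternative; 17 of 180 values for the 10 genes turned it. With the muscle mean as a covariate Plin2 was 0.0035 and Bscl2 −0.0144 log2. Plin5 was −0.0046 after a second quantile normalization, −0.0011 after subtraction of array medians and −0.14 without both WT replicate 2 and Abhd15 KO replicate 1. Leaving out single arrays gave −0.15 to 0.10 for Plin2, −0.09 to 0.16 for Plin5, −0.0030 to 0.051 for Cidea, −0.0142 to 0.11 for Bscl2 and −1.14 to 0.024 for Fitm1, in log2 units. The cause was not tested. With the replicate number as a block Plin5 was −0.062 and Plin3 0.29 log2, and 422 genes had an unadjusted p under 0.05. Deviations of same-numbered arrays correlated at −0.26, −0.10 and 0.02, and Abhd15 KO replicate 1 correlated best with WT replicate 2 (0.39). The labels do not say whether same numbers belong together, and these correlations cannot decide it. Fitm1 was −0.28 log2 when its probe sets were averaged.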

Other observations

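Dio2, the enzyme that activates thyroid hormone in brown fat, is one of the brown adipocyte markers whose mean was lowest in Abhd15 KO replicate 3; it is named after its values were seen. It read 4.47 log2 there, against 7.10 to 8.32 in the other arrays labelled Abhd15 KO and 5.57 to 6.80 in WT. Lep, the leptin gene and one of the white adipocyte markers, read 2.82 log2 in Abhd15 KO replicate 3 and 2.87 log2 in replicate 4, both below the dim limit and so without an order, against 3.98 to 4.67 in the other arrays labelled Abhd15 KO and 3.00 to 4.24 in WT.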
